A study of Mus musculus with 2 samples.

Results

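The Mir183 cluster is a set of 3 miRNA genes, Mir183, Mir96 and Mir182, that lie beside each other on mouse chromosome 6 and are read from the same strand. They were chosen by name through their Ensembl identifiers, and all 3 were found among the 1973 miRNA genes listed in the count tables. The tables come from small RNA libraries of total RNA from skeletal muscle of newborn mice (strain B6NCrl, postnatal day 0), with 1 library from each of 2 pups of the same litter, called replicate 1 (pup 1) and replicate 2 (pup 2). The labels give no treatment, genetic change or muscle name, and the sex of the pups was not collected. Both libraries belong to 1 group, so every comparison below is between 2 pups, and what differs by pup cannot be told apart from what differs by dissection or by library.

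The cluster is best known from sensory organs. Its miRNAs accumulate in hair cells of the inner ear, in photoreceptors of the retina and in sensory neurons, and changes in the seed of miR-96 cause hearing loss in mice and humans. They are also made at lower levels elsewhere, for example in activated lymphocytes and in some epithelia, and miR-182 and miR-96 can repress FoxO transcription factors, which drive protein breakdown in muscle. A miRNA gene is transcribed as a hairpin that is trimmed to 2 arms, and the arm loaded into Argonaute finds its targets mainly through bases 2 to 8, the seed.

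The 3 hairpins are shown first because every count in this report was made over them. The sequences are from RefSeq (GRCm38.p6, the assembly also called mm10), written 5′ to 3′ on the minus strand, and all 3 members matched an entry. Capitals mark the 2 mature arms of each hairpin, the 5p arm before the 3p arm.
Mir183, chr6:30169668-30169737: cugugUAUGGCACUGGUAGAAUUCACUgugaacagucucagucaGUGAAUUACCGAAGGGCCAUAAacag
Mir96, chr6:30169446-30169551: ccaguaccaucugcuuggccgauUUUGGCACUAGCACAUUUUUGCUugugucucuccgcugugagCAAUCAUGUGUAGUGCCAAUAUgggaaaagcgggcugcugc
Mir182, chr6:30165918-30165992: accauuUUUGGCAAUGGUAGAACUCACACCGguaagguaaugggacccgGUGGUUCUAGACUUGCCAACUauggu

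The 5p arms show how closely the members are related in the part that pairs with targets. Here capitals mark the seed.
miR-183-5p: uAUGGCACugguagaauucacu
miR-96-5p: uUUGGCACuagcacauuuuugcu
miR-182-5p: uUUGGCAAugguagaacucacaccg
Counted from 1 at the 5′ end, miR-182-5p and miR-96-5p differ by 1 substitution in the seed, A8C, with the base of miR-182-5p given first. Between miR-96-5p and miR-183-5p the seed also differs by 1 substitution, U2A, with the base of miR-96-5p first. miR-182-5p and miR-183-5p differ by both, U2A and A8C, yet they are the most alike over the whole arm, with 18 of 22 aligned bases identical when set base by base from the 5′ end. The same comparison gave 12 of 23 for miR-182-5p with miR-96-5p and 13 of 22 for miR-96-5p with miR-183-5p. The seeds of miR-182-5p and miR-183-5p were found in no other mature arm of the RefSeq table. The seed of miR-96-5p was found in 1 other arm, miR-1271-5p, whose sequence is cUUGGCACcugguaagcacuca, with the shared seed in capitals.

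None of the 3 hairpins shared a stretch of 20 bases with any of 1004 other miRNA hairpins in that table. Reads that map to several places were listed apart from the gene counts and made up 30.2% of all reads in replicate 1 and 29.9% in replicate 2. The tables count reads per gene, so the 5p and 3p arms of a member cannot be told apart.

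In GENCODE M21 on mm10 the 3 genes lie between 2 protein-coding genes and inside no other annotated gene. Mir183 (ENSMUSG00000065619.2) comes first in the direction of transcription, Mir96 (ENSMUSG00000065586.1) follows after 116 bases, and Mir182 (ENSMUSG00000076361.1) lies 3453 bases further on. The whole cluster spans 3820 bases. Upstream of Mir183, the non-coding gene Rncr4 (30172893 to 30175126) starts 3155 bases away on the opposite strand and is read in the other direction. The protein-coding gene Nrf1 (30047988 to 30153458, plus strand), a regulator of mitochondrial genes, lies 12459 bases beyond Mir182. Ube2h (30211289 to 30304539, minus strand), a ubiquitin-conjugating enzyme, lies 41551 bases upstream of Mir183.

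**Figure D1:**
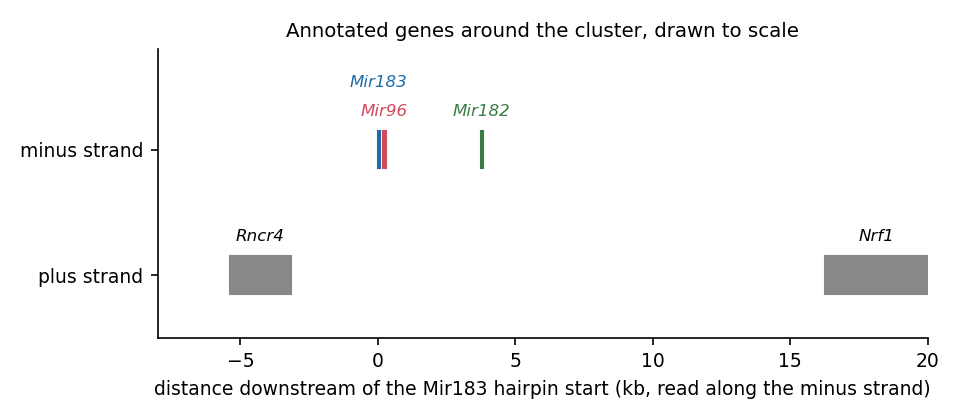
Annotated genes around the cluster, with distance in kb downstream of the start of the Mir183 hairpin on the x axis and the strand on the y axis. Bars are gene spans to scale, and Nrf1 runs on past the right edge; Mir183 and Mir96 sit 116 bases apart while Mir182 stands 3453 bases away from Mir96.

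All 3 members were detected in both pups, at low levels for this tissue. Values are CPM, own-strand counts scaled so that those of all miRNA genes in a library sum to 1000000, with 95% exact Poisson intervals that cover counting error only, since the tables hold no molecular identifiers. Replicate 1 held 3754895 own-strand counts and replicate 2 held 5133949, so that 3 counts, the limit that a count of 0 allows, correspond to 0.799 and 0.584 CPM.

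Mir182, the last of the 3 in the transcript, was counted 833 times in replicate 1, or 222 CPM (207 to 237), and 267 times in replicate 2, or 52.0 CPM (46.0 to 58.6). Its mean was 137 ± 120 CPM (SD, n = 2). Mir183 had 384 counts in replicate 1, or 102 CPM (92.3 to 113), and 224 in replicate 2, or 43.6 CPM (38.1 to 49.7). Its mean was 72.9 ± 41.5 CPM (SD, n = 2). For each member the replicate 1 interval lay wholly above that of replicate 2.

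Mir96, the member whose seed changes are tied to deafness, was the lowest of the 3, with 196 counts or 52.2 CPM (45.1 to 60.0) in replicate 1 and 83 counts or 16.2 CPM (12.9 to 20.04) in replicate 2. Its mean was 34.2 ± 25.5 CPM (SD, n = 2). Since the pups differed, these means describe neither of them closely. Ranked by count among the 1973 listed genes, Mir182 was 150th in replicate 1 and 197th in replicate 2, Mir183 was 178th and 203rd, and Mir96 was 206th and 238th. Opposite-strand counts at the 3 hairpins were at most 1 per library.

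**Figure D2:**
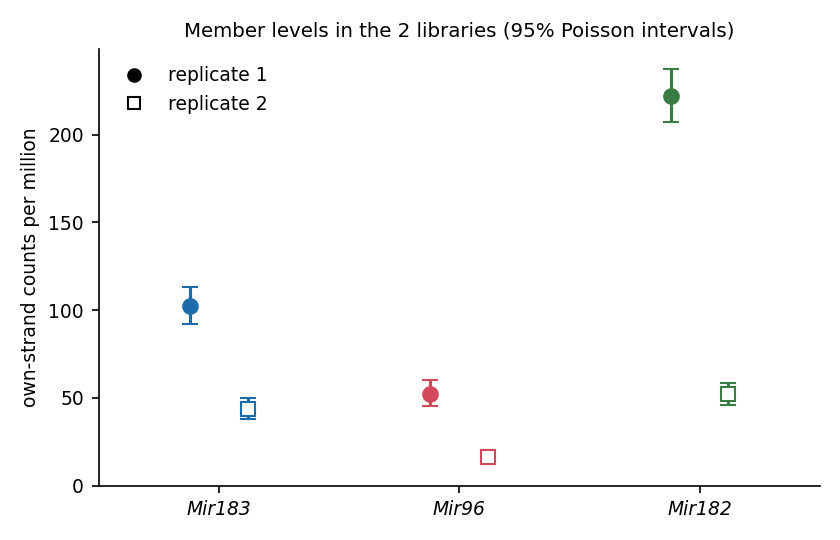
Own-strand CPM of each member on a linear axis from 0, with filled circles for replicate 1, open squares for replicate 2 and bars for 95% exact Poisson intervals. Replicate 1 lies above replicate 2 for every member, from 222 against 52.0 CPM for Mir182 to 52.2 against 16.2 CPM for Mir96.

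The order Mir182, Mir183, Mir96 held in both libraries, and each step was set against counting error with an exact two-sided binomial test, adjusted by Benjamini-Hochberg over 4 tests. In replicate 1 Mir182 had 2.17 times the counts of Mir183 (exact binomial test, adjusted p = 5.31e-38). In replicate 2 the 2 were close, at 1.19 times, and did not pass the threshold (exact binomial test, adjusted p = 0.0579). Mir183 exceeded Mir96 in both, by 1.96 times in replicate 1 (exact binomial test, adjusted p = 6.33e-15) and 2.70 times in replicate 2 (adjusted p = 8.04e-16, same exact test). Divided by hairpin length (75, 70 and 106 bases for Mir182, Mir183 and Mir96), the order was unchanged, with 2.96, 1.46 and 0.492 CPM per base in replicate 1 and 0.693, 0.623 and 0.153 in replicate 2. Mir96 has the longest hairpin, so this division could not have moved it from last place. The hairpins of Mir182 and Mir183 are close in length, so at these counts their order could not have changed either. The division is therefore no check of the order. Ligation and amplification can favour some small RNA sequences over others, and their part in the order was not tested.

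Summed, the cluster held 1413 counts in replicate 1, 0.0376% of the library (95% Clopper-Pearson interval 0.0357 to 0.0396), and 574 in replicate 2, 0.0112% (0.0103 to 0.0121). For scale, the striated muscle list (Mir206, Mir133b, Mir1a-1, Mir133a-1 and others, 9 of 10 measured and none at 0) held 8.13% and 8.94%. Mir206, a miRNA of skeletal muscle, had 79447 and 87198 CPM and made up 97.7% and 97.6% of that list. Mir1a-1 and Mir133a-1, also defining for striated muscle, stood below every member of the cluster, at 6.39 and 8.96 CPM and at 5.33 and 6.23 CPM. Each makes a mature miRNA that another gene also makes, so their counts are uncertain.

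Each member was higher in replicate 1. Log2 ratios below set replicate 2 over replicate 1 after TMM scaling, which removes shifts shared by most genes, with 0.5 added to each count. Mir182 had a log2 ratio of -1.96 (95% interval -2.17 to -1.76), a 3.89-fold higher level in replicate 1. For Mir96 the log2 ratio was -1.55 (-1.95 to -1.18), or 2.94-fold. Mir183 differed least, with -1.10 (-1.34 to -0.86), or 2.14-fold.

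The exact two-sided binomial test asks whether 2 libraries differ beyond counting error, and its p-values were adjusted over all 373 genes with at least 10 counts in total. The adjusted p was 1.62e-97 for Mir182, 1.73e-17 for Mir96 and 1.15e-19 for Mir183 (exact binomial test). A gene was called when the adjusted p was under 0.05 and the difference at least 2-fold, and 3 of 3 members were called, all higher in replicate 1. Over all tested genes 5.09% were called in either direction and 4.56% were called higher in replicate 1. The median log2 ratio of the members was -1.55, and that of all 373 genes was 0.0059.

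With more than counting error allowed for, none of the 3 was called. An edgeR exact test with the dispersion estimated from both libraries as if they were 1 group (biological coefficient of variation 0.319) gave an adjusted p of 0.192 for Mir182, 0.998 for Mir96 and 1 for Mir183. Without adjustment the exact test p was 0.0046 for Mir182, 0.027 for Mir96 and 0.107 for Mir183. That dispersion comes from the same 2 libraries and holds the differences under test, so it is no independent measure of the spread between pups. By that test 2.14% of genes were called, 8 in all, and 7 of them were the epithelial genes described below. From the lowest log2 ratio upwards, Mir182 ranked 11th, Mir96 14th and Mir183 21st of the 373 genes.

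**Figure D3:**
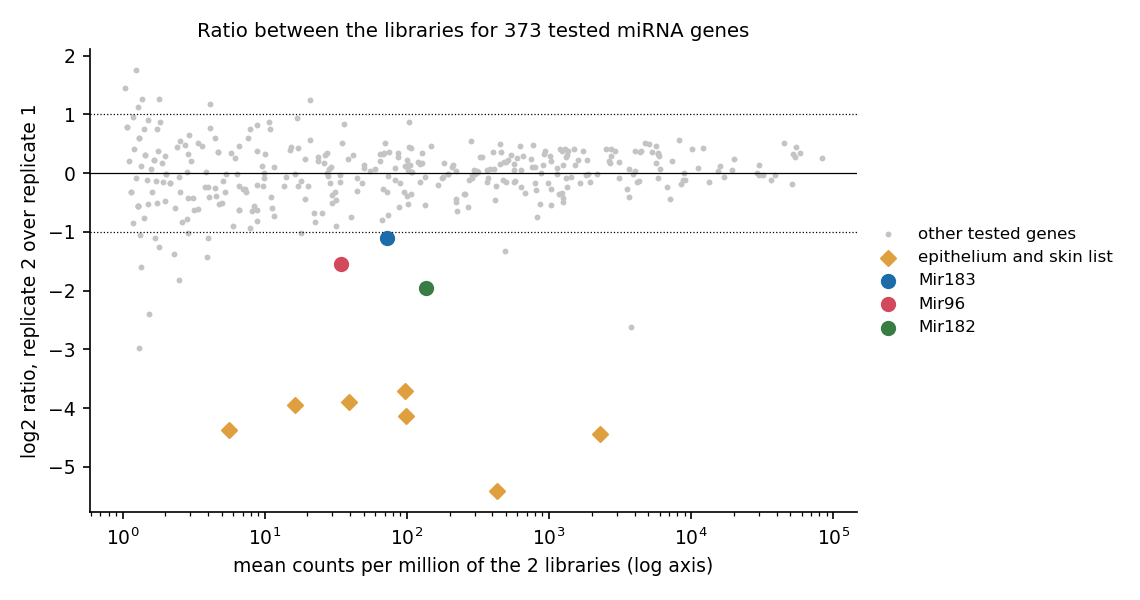
Log2 ratio of replicate 2 over replicate 1 against mean CPM on a log axis for 373 tested miRNA genes, with 1 point per gene and dotted lines at 2-fold. The members sit between -1.96 and -1.10, under most genes of like level and above the epithelium and skin list, which runs from -5.42 to -3.71.

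The members stood in different proportions in the 2 libraries. Mir182 made up 59.0% of the cluster's counts in replicate 1 (95% Clopper-Pearson interval 56.3 to 61.5) and 46.5% in replicate 2 (42.4 to 50.7). Mir183 differed in the other direction, with 27.2% (24.9 to 29.6) in replicate 1 and 39.0% (35.0 to 43.2) in replicate 2. Mir96 held 13.9% (12.1 to 15.8) and 14.5% (11.7 to 17.6), and its intervals overlap.

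A two-sided Fisher's exact test compared each of the 3 pairs of members between libraries, adjusted over the 3 pairs. The ratio of Mir182 to Mir183 was 2.17 in replicate 1 and 1.19 in replicate 2, a difference of 1.82 times (95% interval 1.46 to 2.27) that exceeded counting error (Fisher's exact test, adjusted p = 1.70e-07). The ratio of Mir182 to Mir96 was 4.25 and 3.22, which differed by 1.32 times (0.974 to 1.78) and did not pass the threshold (Fisher's exact test, adjusted p = 0.0647). Mir183 to Mir96 stood at 1.96 and 2.70, a factor of 0.726 (0.528 to 0.995), and did not pass after adjustment either (Fisher's exact test, adjusted p = 0.0606). These tests do not depend on how the libraries are scaled, because both genes of a pair share the library. They compare 2 libraries, and the spread of such ratios between pups is not known from 1 library each.

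**Figure D4:**
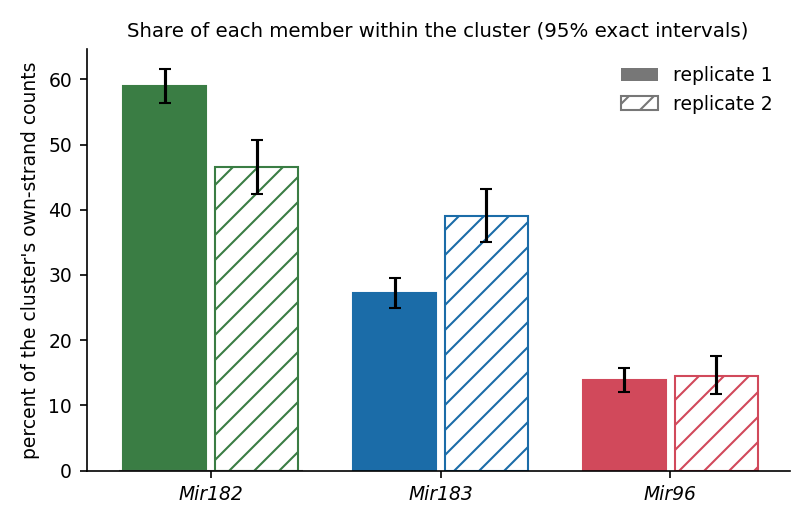
Percent of the cluster's own-strand counts taken by each member, with filled bars for replicate 1 (1413 counts), hatched bars for replicate 2 (574 counts) and error bars for 95% exact binomial intervals. Mir182 takes 59.0% in replicate 1 and 46.5% in replicate 2, Mir183 takes 27.2% and 39.0%, and Mir96 takes 13.9% and 14.5%.

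Other groups of neighbouring miRNA genes give a measure of how far such members differ. Listed genes on 1 strand less than 10 kb apart were joined, and 12 clusters had at least 3 members with at least 10 counts in total. The log2 ratios of the Mir183 cluster spanned 0.86, from -1.96 to -1.10. In the other 11 clusters the span ran from 0.099 to 1.26 with a median of 0.53, so the Mir183 cluster ranked 6th of 12. The clusters hold from 3 to 32 members, and a span tends to be wider with more members. Counting error also widens a span, and genes with few counts set an end of some of the wider ones. Examples are Mir3070b with 6 and 5 counts and Mir669e with 11 and 20, where the Mir183 cluster had at least 83 per member and library. In the 4 other clusters of 3 members it was 0.099 to 0.53.

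By its median log2 ratio of -1.55 the Mir183 cluster stood between 1 cluster of epithelial genes and all the rest. The epithelial cluster of Mir429, Mir200a and Mir200b on chromosome 4 was far lower, with a median of -4.13 and a range from -4.37 to -3.90. In the remaining 10 the medians lay between -0.21, in the cluster from Mir17 to Mir92-1, a growth-linked group, and 0.37. A stricter minimum of 10 counts in both libraries would leave 11 clusters and drop the epithelial one, since Mir200a had 41 and 2 counts. In level the members were close, with 4.01 times between the highest and lowest mean CPM, against a median of 91.3 times in the other clusters (3.38 to 42834). This factor also tends to be larger with more members, and in the 4 other clusters of 3 members its median was 33.9 times (3.38 to 169). Some of those clusters hold genes whose mature sequence is also made elsewhere, and reads that map to several places are not in the counts of such genes.

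**Figure D5:**
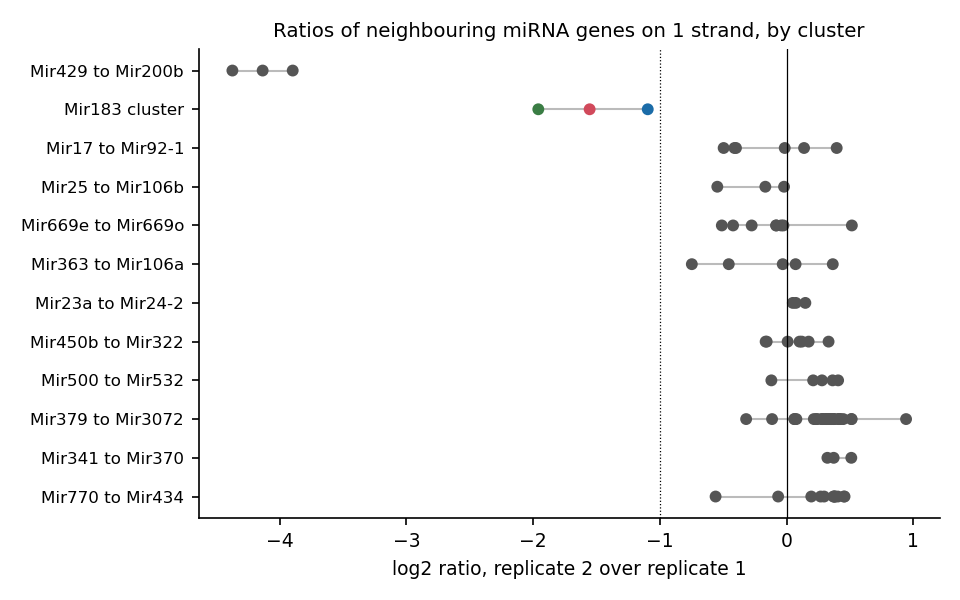
Log2 ratio of replicate 2 over replicate 1 for each member of 12 clusters of neighbouring miRNA genes, with 1 point per gene, grey lines for the span and a dotted line at 2-fold. The 3 members of the Mir183 cluster lie left of the dotted line, between -1.96 and -1.10, as do the 3 genes from Mir429 to Mir200b, between -4.37 and -3.90.

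None of the 3 tested neighbours within 2 Mb on chromosome 6 was called (5.09% of all tested genes were). Mir335, in the imprinted Mest gene 572 kb away, had 56708 and 45784 CPM and a log2 ratio of -0.18, which exceeded counting error at this depth but was far under 2-fold. Mir29a, at a distance of 893 kb, had 192 and 168 CPM, a log2 ratio of -0.060, and did not pass the threshold (exact binomial test, adjusted p = 0.559). Its partner Mir29b-1 had 6 and 5 counts. Mir129-1 had 0 counts in replicate 1 and 7 in replicate 2, which is too few for the test, and the other 3 listed neighbours had 0 counts in both.

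The gene of miR-1271-5p, which shares the seed of miR-96-5p, is listed as Gm24195 (mature arm at chromosome 13, 54578152 to 54578173, plus strand). It had 0 counts on both strands in both libraries, which allows up to 0.799 CPM in replicate 1 and 0.584 CPM in replicate 2. Of the arms in the RefSeq table that carry this seed, counts were therefore found for Mir96 alone, at 52.2 and 16.2 CPM. Adding the arms whose bases 3 to 8 read UGGCAC brought in miR-183-5p only, since 3 of 1738 mature arms in the RefSeq table carry these letters there: miR-96-5p, miR-183-5p and miR-1271-5p. The 3p arm of miR-96 shares its seed with miR-3475-5p, and Mir3475 had 10.4 and 6.04 CPM (log2 ratio -0.65, exact binomial test, adjusted p = 0.132).

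Marker genes in 9 lists of tissues and cell types were counted in the same libraries. The lists were not limited to cell types known to make these miRNAs, and none was made for hair cells or photoreceptors. Genes of epithelium and skin (the Mir200 family, Mir203 and Mir205) moved in the same direction as the cluster, and by more. All 7 measured genes of the list were called higher in replicate 1 by the binomial test (4.56% of all tested genes were), with log2 ratios from -5.42 to -3.71, and none was at 0. Their summed level was 5688 CPM in replicate 1 and 230 CPM in replicate 2. Mir203, the most abundant, had 4356 and 183 CPM, Mir205 had 843 and 17.9 CPM, and Mir429 had 189 and 9.74 CPM. The part of epithelial cells in the cluster's difference was not tested, and in bulk tissue fewer cells of a type and less RNA per cell cannot be told apart.

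The cluster and the epithelial list differed between the pups by unequal factors. Summed counts gave a log2 ratio of -1.62 (95% interval -1.76 to -1.48) for the cluster and -4.50 (-4.58 to -4.41) for the epithelial list. The cluster's counts were equal to 6.62% of the list's counts in replicate 1 and to 48.7% in replicate 2. Mir203 made up 76.6% and 79.6% of the list's counts, so this is mostly a comparison with 1 gene. A Fisher's exact test of the summed counts gave an odds ratio of 7.36 (6.56 to 8.25) for replicate 2 over replicate 1, counting error only. It was chosen after the values were seen and adds nothing to the intervals above, which did not overlap. In replicate 2, Mir182 at 52.0 CPM and Mir183 at 43.6 CPM stood below Mir203 at 183 CPM. They stood above the other epithelial genes, of which Mir205 was the highest at 17.9 CPM. In replicate 1 Mir182, at 222 CPM, lay far below Mir203 at 4356 CPM and Mir205 at 843 CPM. It lay near Mir429 at 189 CPM and Mir200c at 182 CPM.

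Of the lists linked to sensory and nervous tissue, the eye and glial lists had close summed levels in the 2 pups. The neuron list summed higher in replicate 2, and single genes in the lists went either way. Each sum rests mostly on 1 or 2 abundant genes, so medians over the tested genes are given too. Over all tested genes 5.09% were called, so the counts of called genes in such short lists say little. The eye and pigment epithelium list, led by Mir204 at 122 and 124 CPM, had summed levels of 131 and 130 CPM (log2 ratio 0.12, 95% interval -0.050 to 0.29) and none of its 3 genes was called. The median log2 ratio of the 3 was -0.25, and Mir211, at 15 and 9 counts, had -1.03. The neuron list summed to 1059 and 1279 CPM (log2 ratio 0.40, 0.35 to 0.46), led by Mir128-1 and Mir128-2, with log2 ratios of 0.46 and 0.49. Its median was -0.16, and 4 of 7 tested genes had a lower value in replicate 2. Of these, Mir138-1 had -0.84, Mir138-2 had -0.68 and Mir137 had -0.16, and only Mir129-2, with -1.42, was called higher in replicate 1. Mir9-2 was at 0 in both. The genes of miR-124, the defining neuronal miRNA, were not among the listed genes, and some listed neuronal genes have copies elsewhere. The glial list, led by Mir338, summed to 386 and 363 CPM (log2 ratio 0.046, -0.054 to 0.15), with no gene called of 2 tested. Their median was -0.28, with Mir219a-1 at -0.62.

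The summed levels of the blood and endocrine lists were also higher in replicate 1, by less than that of the cluster. White blood cell genes summed to 646 and 458 CPM (log2 ratio -0.36, -0.45 to -0.28), with 4 of 5 measured and none called. Mir223, with -0.46, made up 78.2% and 73.2% of that sum. The median log2 ratio was -0.15, with Mir155 at -0.30, Mir150 at 0.0009 and Mir146 at 0.075. Red blood cell genes summed to 416 and 299 CPM (-0.34, -0.45 to -0.24), with none of 2 called. Its genes differed in opposite directions, Mir451a by -0.57 and Mir144 by 0.34. The endocrine list stood at 66.8 and 40.9 CPM (-0.58, -0.85 to -0.31), with none of 3 called. Mir375, with -0.90, made up 63.7% and 51.0% of it. The median was -0.22, with Mir7-1 at -0.22 and Mir7b at 0.74. The cartilage list was the nearest to the cluster in its summed ratio, at 7917 and 1952 CPM (-1.89, -1.92 to -1.86), and the sum rests on Mir140. Mir140 had 6539 and 966 CPM and was called, while Mir455 had 1377 and 986 CPM and was not. The part of cartilage in the cluster's difference was not tested. Muscle genes differed in the other direction, at 81343 and 89366 CPM (0.27, 0.26 to 0.27), with none of 9 called. Over all tested genes 5.09% were called, so lists this short would often have none called.

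The genes whose ratio lay nearest to that of the summed cluster were sought among all genes with at least 10 counts in both libraries, a likeness over only 2 libraries. Mir129-2, of the neuron list, came first with a log2 ratio of -1.42 (22 and 10 counts). Mir708 followed with -1.32 (2714 and 1352 counts). Mir3066 (-1.10), Mir511 (-1.02) and Mir1955 (-0.93) completed the nearest 5, with mean levels of 3.97, 17.9 and 7.86 CPM. Of these only Mir708 was above the level of the members, and none lies on chromosome 6.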

How the data were processed

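The authors deposited 1 table of raw counts for each library, with a row for every listed miRNA gene, made on build mm10 with annotation M4, per the deposited descriptions. Aligner and counter are not given in the sources used here. The 3 count columns have no header; in every gene the first is the sum of the later columns, and the middle one was read as own-strand counts. The 4 leading lines of reads outside genes stayed out of library sizes, so that 52.6% and 51.6% of all reads were own-strand gene counts. Identifiers were matched to GENCODE M21 for 1894 of 1973 genes.

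Counts were scaled to CPM. TMM factors (1.05 and 0.955) from edgeR 4.0.16 under R 4.3.3 scaled the ratios, with a pseudocount of 0.5. Setting 1 library against the other leaves no residual degrees of freedom, so an exact two-sided binomial test replaced a quasi-likelihood fit. Intervals came from scipy 1.17.1. Only the binomial test of ratios was run on simulated counts, which held counting error alone and no spread between pups. Alternatives were both strands, other denominators, pseudocounts and filters, total-count scaling, DESeq2 1.42.0 size factors, an edgeR exact test with estimated dispersion, each library alone, and TMM without epithelial genes and Mir140, the last chosen after seeing the data. Named genes were the members, listed genes within 2 Mb, genes that share a seed, the 5 nearest ratios and genes of the lists. The plan was at most 3 per list, but more were named for the epithelial, neuron, muscle and white blood cell lists. The members, lists and tests were chosen with earlier results of these data known.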

Additional observations from a re-analysis of the deposited data

How the results depend on the processing

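Of 27 alternative values of tested ratios, 24 kept their direction and side of the threshold. The exceptions came from the edgeR exact test with the dispersion of the 2 libraries, which gave log2 ratios of -1.96 for Mir182, -1.56 for Mir96 and -1.10 for Mir183, none of them called, and lowered the called genes from 19 to 8; it counts the difference between these pups as error, which the binomial test does not. Under the other settings the log2 ratio ran from -2.09 to -1.94 for Mir182, from -1.69 to -1.51 for Mir96 and from -1.23 to -1.08 for Mir183, and all stayed called. With all reads as denominator the levels fell to 71.7 CPM for Mir182, 38.1 for Mir183 and 17.9 for Mir96, and the mean cluster share to 0.0128% from 0.0244%, because the denominator also holds reads outside miRNA genes. Leaving out a pup says nothing about stability, since either of 2 values is by construction less than 1 SD from their mean. No paired analysis was possible because the labels define a single group. Depth limits Mir96 most, with 83 counts in replicate 2.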
